A study of Mus musculus with 12 samples.

Results

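Cholesterol synthesis and sterol regulation were followed through 33 genes of the mouse dorsal hippocampus, which code for the enzymes of the mevalonate and sterol steps, the SREBP regulators, the LXR receptors with their exporters, and proteins that carry or turn over cholesterol. The members were given as a list of 33 symbols and kept where the mean raw count over the 12 mice was at least 10. All 33 passed, from 58.9 counts for Nr1h3 to 4125 for Hmgcs1, out of 24985 genes in the count table, and all 33 were among the 14742 genes that passed the filter on low counts and were tested.

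RNA-seq was done on polyA RNA of the right dorsal hippocampus, the injected side, from 12 C57Bl6/J mice that the paper describes as wild type. The mice had received 1 unilateral injection of PBS or of 1 µg of human AD tau (pathological tau purified from post mortem brain of patients with Alzheimer's disease) at the age of 6 months, and were collected 6 months later, 24 h after a remote memory recall test. Each injection was combined with a control diet (standard chow, TestDiet) or with LabDiet chow holding 5% Na-acetate, so that 4 groups of 3 mice were available, named here PBS control and tau control for the control diet and PBS acetate and tau acetate for the other. The series asks how elevated acetate and pathological tau act together, with memory in view. All 4 groups share the surgery, the recall test and the collection day. The tau was taken from human brain and injected on 1 side into animals with no tau transgene, and the base chows of the diets carry different names in the labels. The paper describes the control diet as equivalent in calories to the acetate diet.

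Cells make cholesterol from acetyl-CoA: the mevalonate steps build isoprenoid units, and the sterol steps join them to squalene, close the rings and trim the product to cholesterol. SREBP2, held in the endoplasmic reticulum by SCAP and the INSIG proteins while sterols are plentiful, switches on most genes of both arms when sterols fall, whereas LXR receptors, activated by oxysterols, switch on exporters such as ABCA1 and ABCG1. The brain makes its own cholesterol, much of it in oligodendrocytes and astrocytes, and neurons remove the excess through CYP46A1, which forms 24S-hydroxycholesterol.

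Totals ran from 12983233 to 20218340 counts per mouse, and values below are CPM (counts scaled to a common library size) after TMM normalization, whose factors were 0.99 to 1.01. The labels give all mice as male, but Xist had 13583 to 25991 counts in every library and 8 Y-linked genes had 0 counts together, so the label and the data disagree in the same way for all 12. Oligodendrocyte markers (12 of 12 detected) summed to 7511 to 9697 CPM in PBS control, 4713 to 6491 in PBS acetate, 4982 to 6060 in tau control and 5688 to 9131 in tau acetate. CA1 neuron markers (5 of 5) summed to 482 to 639, 765 to 1028, 654 to 826 and 697 to 999 CPM in the same order, and CA3 markers (6 of 6) to 619 to 772, 461 to 606, 609 to 690 and 468 to 591. Astrocyte markers (8 of 8) stayed between 4828 and 5459 CPM in all 12 mice, and choroid plexus markers (6 of 6) between 64.7 and 204 in 11 mice, with 481 in tau acetate mouse 3. None of the markers was at 0 in all mice. Fewer cells of a type and less RNA per cell cannot be told apart in bulk tissue.

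The promoters of the enzymes shared a sequence feature that the choice of members did not use. RefSeq promoter windows (GRCm38.p6, from 250 bases before to 50 bases after a start) were at hand for 27 of the 33 members, all but Fdps, Fdft1, Sqle, Abcg1, Stard4 and Npc1. The pentamer CCAAT, read on either strand (ATTGG on the other) and bound by NF-Y, a known partner of SREBP, was found in 21 of these 27 genes (77.8%) and in 15 of the 16 enzyme genes (93.8%), against 41.1% of 27025 genes with a window and 42.4% of 11505 tested genes with one. The sterol regulatory element CACCCCAC (GTGGGGTG on the other strand) was found in Acat2 and Hmgcs1 only, 7.41% of the members against 3.3% of genes. The motifs share no base in the windows shown. Genes with several windows were counted once if any window held the motif, and a match describes letters, not a bound site. 4 windows are shown because they set an enzyme early in the pathway, a late one, an exporter and the neuronal hydroxylase side by side. They are Hmgcs1 (chr13:119690101-119690400, plus strand), Dhcr7 (chr7:143829964-143830263, plus strand, the one of its 3 windows with the most matches), Cyp46a1 (chr12:108334066-108334365, plus strand) and Abca1 (chr4:53159846-53160145, minus strand), with capitals marking CACCCCAC, CCAAT or ATTGG.
Hmgcs1: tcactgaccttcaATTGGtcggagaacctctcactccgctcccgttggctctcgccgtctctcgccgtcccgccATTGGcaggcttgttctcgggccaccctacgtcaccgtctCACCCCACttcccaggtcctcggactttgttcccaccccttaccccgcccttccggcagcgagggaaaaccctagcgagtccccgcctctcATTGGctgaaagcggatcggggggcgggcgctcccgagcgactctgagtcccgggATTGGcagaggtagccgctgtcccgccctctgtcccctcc
Dhcr7: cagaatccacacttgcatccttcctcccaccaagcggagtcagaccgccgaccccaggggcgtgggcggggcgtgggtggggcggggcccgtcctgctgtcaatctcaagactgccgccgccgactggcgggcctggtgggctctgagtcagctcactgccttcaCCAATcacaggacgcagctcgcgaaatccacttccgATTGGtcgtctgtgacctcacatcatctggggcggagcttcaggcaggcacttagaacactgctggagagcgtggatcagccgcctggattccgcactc
Cyp46a1: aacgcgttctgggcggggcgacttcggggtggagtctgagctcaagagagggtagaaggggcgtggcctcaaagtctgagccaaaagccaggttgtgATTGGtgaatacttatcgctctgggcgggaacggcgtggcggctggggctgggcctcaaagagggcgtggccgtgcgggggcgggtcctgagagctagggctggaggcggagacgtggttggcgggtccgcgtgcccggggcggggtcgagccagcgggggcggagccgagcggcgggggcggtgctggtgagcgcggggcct
Abca1: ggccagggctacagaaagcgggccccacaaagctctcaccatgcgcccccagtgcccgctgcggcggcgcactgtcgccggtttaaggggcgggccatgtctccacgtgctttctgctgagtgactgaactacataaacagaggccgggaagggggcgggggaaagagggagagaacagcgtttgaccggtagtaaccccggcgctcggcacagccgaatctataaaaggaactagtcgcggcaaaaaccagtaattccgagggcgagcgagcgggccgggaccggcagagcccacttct

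The Hmgcs1 window held 1 sterol regulatory element and 4 CCAAT pentamers, the Dhcr7 window 2 pentamers and the Cyp46a1 window 1. The Abca1 window held neither motif.

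Per kb of exon, Hmgcs1, the enzyme that makes HMG-CoA, was the highest member, at 56.8 ± 6.80 CPM per kb (SD over the 12 mice). Cyp46a1 followed at 39.3 ± 3.27 and Srebf2, the gene of SREBP2, at 34.7 ± 2.10 CPM per kb, and the 12-mouse ranges of Cyp46a1 and Srebf2 overlapped while every mouse's Hmgcs1 value lay above them. Below them came Insig1 (21.3 ± 2.31) and Fdft1, squalene synthase (16.2 ± 1.63). The lowest members were Nr1h3, the gene of LXRα (1.49 ± 0.25 CPM per kb), and Idi1, isopentenyl diphosphate isomerase (1.63 ± 0.17), whose ranges overlapped. The LXRβ gene Nr1h2 lay at 11.6 ± 0.58 CPM per kb, above every mouse's Nr1h3 value. Neighbours in the rest of this order mostly had overlapping ranges, as the plot of levels per length shows.

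**Figure D1:**
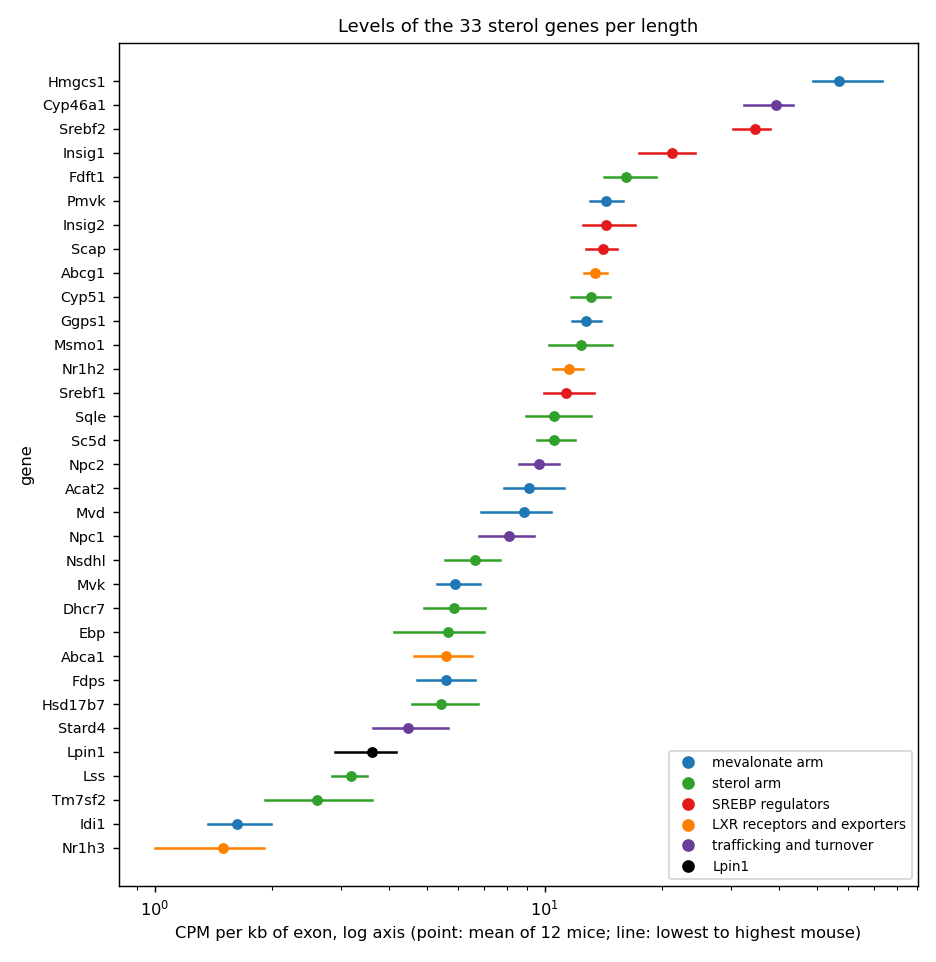
Level of each of the 33 genes in CPM per kb of exon on a log axis; points are the means of 12 mice, lines run from the lowest to the highest mouse and colours give the role. Hmgcs1 stands highest at 56.8 CPM per kb and Nr1h3 lowest at 1.49, and most neighbours overlap.

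Within groups the members were tight. The coefficient of variation among the 3 mice of a group, averaged over the groups, had a median of 8.20% over the members, from 2.77% for Abcg1 to 16.3% for Tm7sf2. Mice also stood apart as individuals: PBS control mouse 1 was the highest of the 12 in 10 of the 33 members and in 8 of the 19 enzymes, with 1038 CPM summed over the enzymes, and had the largest oligodendrocyte sum, 9697 CPM. At the other end, tau acetate mouse 2 was the lowest of the 12 in 8 members and in 7 enzymes, with 783.5 CPM summed over the enzymes.

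Between the diets in PBS-injected mice edgeR called more members than in the other pairwise comparisons, as it did over all genes (1303 called, against 9 between the diets after tau). Of the 33 members, 3 fell with acetate at an adjusted p below 0.1 (edgeR's quasi-likelihood test, Benjamini-Hochberg over all tested genes), namely the cholesterol carrier Stard4 and the sterol-arm enzymes Sqle and Dhcr7. Both genes that rose, Abca1 and Cyp46a1, serve the export or removal of cholesterol. Over all genes the test called 4.85% lower and 3.99% higher, so 3 and 2 of 33 members are small counts beside a background of that size, and nothing particular to the pathway is read from them. The log2 fold changes of the members had a median of -0.08, with 19 below 0, against 0.0042 over all genes. At an unadjusted p below 0.05, 8 members were lower and 3 higher, against 10.8% and 9.96% of all genes. The groups did not overlap for 5 members that were lower and 3 that were higher, against 13.2% and 13.1% of all genes.

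Stard4, a soluble protein that moves cholesterol between membranes, had 31.5, 25.5 and 28.6 CPM in the PBS control mice and 20.5, 22.0 and 22.6 in the PBS acetate mice. In tau-injected mice it had 24.1, 28.1 and 31.5 CPM on control diet and 22.8, 20.99 and 20.3 on acetate. All 6 acetate mice thus lay below all 6 control mice, whatever the injection. Summed neuron markers (5 of 5 detected) split the mice in the same way, with 4183 to 4896 CPM in the 6 acetate mice and 5028 to 5574 in the 6 control mice. In that list Snap25 (log2 fold change -0.40 after PBS, -0.28 after tau) and Slc17a7 (-0.22, -0.12) were lower with acetate. Rbfox3 (0.02, 0.08), Gad1 (0.14, -0.02) and Gad2 (0.11, -0.02) were not lower in both arms. The part of these markers in the Stard4 difference was not tested. The log2 fold change of Stard4 with acetate was -0.40 (SE 0.10, adjusted p = 0.0379, edgeR) in PBS-injected mice. In tau-injected mice it was -0.38 (SE 0.10, adjusted p = 0.208, edgeR), and the same size of difference did not pass the threshold. The difference between these responses was 0.02 (95% interval -0.28 to 0.32).

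Sqle, squalene epoxidase, which makes the first oxygenated step of the sterol arm, had 72.8, 57.0 and 66.6 CPM in PBS control mice and 52.2, 49.9 and 56.4 in PBS acetate mice. In tau-injected mice the values were 59.9, 67.9 and 64.0 CPM on control diet and 58.5, 49.5 and 50.6 on acetate. The diet groups did not overlap in either injection, although in the PBS arm the lowest control and the highest acetate mouse were close. Acetate mice differed by a log2 fold change of -0.31 (SE 0.09, adjusted p = 0.0516, edgeR) after PBS and -0.27 (SE 0.09, adjusted p = 0.276) after tau.

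Dhcr7, a reductase of the last sterol steps, had 40.9, 36.4 and 38.5 CPM in PBS control mice and 30.2, 30.1 and 33.6 in PBS acetate mice, with no overlap. In tau-injected mice the control mice had 34.9, 33.6 and 35.6 CPM and the acetate mice 37.5, 28.6 and 30.3. Acetate mouse 1 was here above every control mouse, so the groups overlapped. The log2 fold change was -0.31 (SE 0.09, adjusted p = 0.0638, edgeR) after PBS and -0.11 (SE 0.09, adjusted p = 0.727) after tau, and the difference between them, 0.20 (SE 0.13, adjusted p = 0.559), did not pass.

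Abca1, the transporter that loads cholesterol onto apolipoproteins, had 48.0, 54.5 and 48.3 CPM in PBS control mice and 66.5, 67.4 and 52.8 in PBS acetate mice. Acetate mouse 3 lay within the control range, so this call rested on groups that overlapped. In tau-injected mice it had 51.4, 56.5 and 59.9 CPM on control diet and 61.1, 62.2 and 66.8 on acetate, without overlap. With acetate, the log2 fold change was 0.31 (SE 0.09, adjusted p = 0.0546, edgeR) after PBS and 0.18 (SE 0.09, adjusted p = 0.469) after tau.

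Cyp46a1, which is expressed by neurons, had 107, 126 and 111 CPM in PBS control mice and 135, 142 and 139 in PBS acetate mice. In tau-injected mice it had 134, 135 and 126 CPM on control diet and 128, 130.4 and 138 on acetate. The 3 PBS control mice were the lowest of the 12, with PBS control mouse 2 just under the lowest tau mouse. The log2 fold change with acetate was 0.28 (SE 0.06, adjusted p = 0.0227, edgeR) after PBS and 0.01 (SE 0.06, adjusted p = 0.981) after tau, and the difference between these responses was -0.27 (SE 0.08, adjusted p = 0.153). CA1 markers moved with Cyp46a1 in the PBS arm: 5 of 5 were higher with acetate, 3 of them called. Their median log2 value was 0.68, and 3.99% of all genes were called higher. Dentate granule cell markers were also higher (4 of 4, 0 called). Of the 6 CA3 markers, 5 were lower and 1 was higher, with 1 called each way. Of the 5 neuron markers, Snap25 (-0.40) and Slc17a7 (-0.22) were called lower, and the other 3 lay above 0. The part of these markers in the Cyp46a1 difference was not tested.

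**Figure D2:**
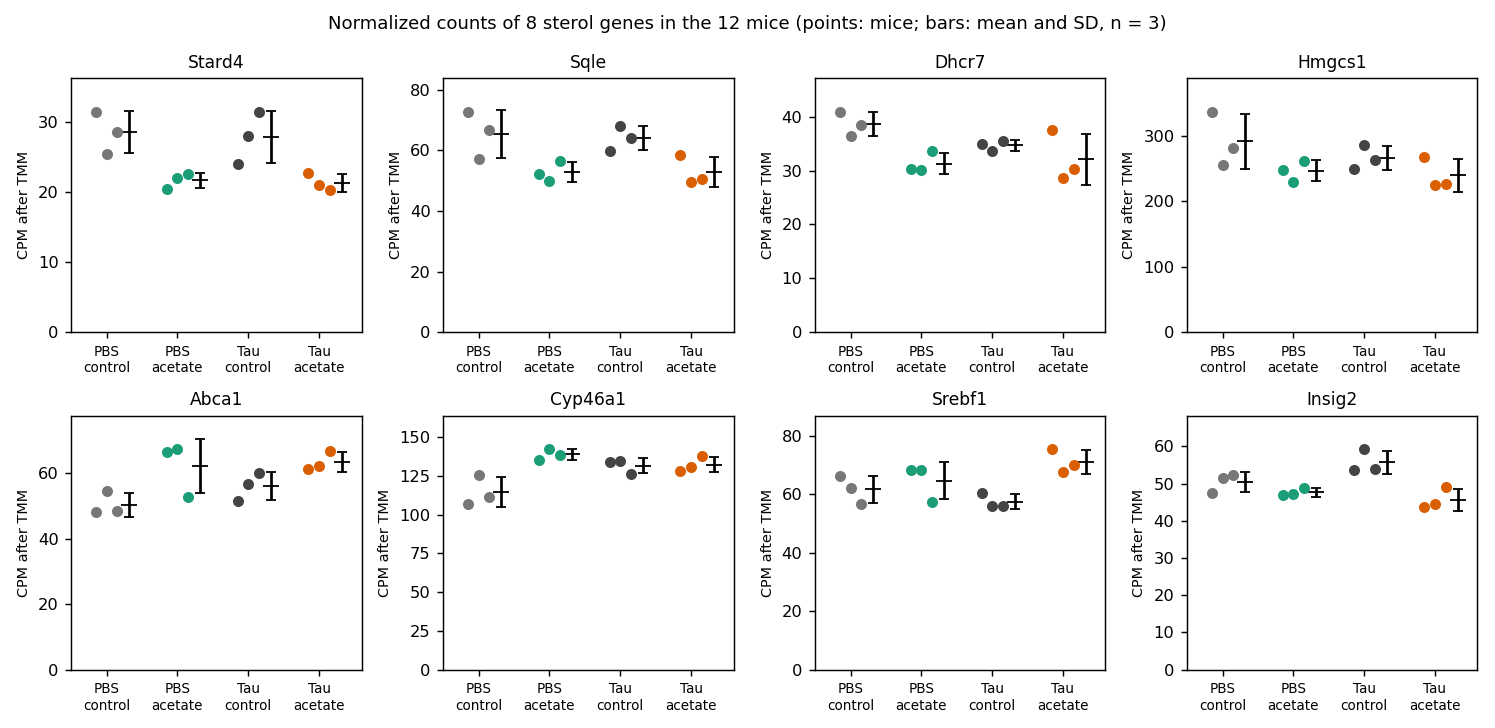
CPM after TMM scaling of 8 members in each of the 12 mice (points), with the mean and SD of each group of 3 (bars), on axes that start at 0. Stard4 lies between 20.3 and 22.8 CPM in the 6 acetate mice and between 24.1 and 31.5 in the 6 control mice.

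The calls in the PBS arm depended on single mice. Without PBS acetate mouse 2 none of the members passed in edgeR, and without PBS control mouse 1, PBS control mouse 3 or PBS acetate mouse 1 only Cyp46a1 did. Over all genes the number called fell from 1303 to 15 without PBS acetate mouse 2. It was 727 without PBS control mouse 1, 248 without PBS control mouse 3 and 315 without PBS acetate mouse 1. The largest count of members, 6, was reached without PBS control mouse 2, PBS acetate mouse 3 or tau acetate mouse 3.

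In tau-injected mice 0 members were called between the diets by edgeR, as were only 0.0611% of all genes. At an unadjusted p below 0.05, 5 members were lower and 5 higher with acetate, against 5.41% and 5.47% of all genes. DESeq2 on all 12 mice called 4 members (Srebf1, Insig2, Stard4 and Lpin1) and 175 genes in all, where edgeR called 9. Groups did not overlap for 5 members that were lower (Ggps1, Sqle, Cyp51, Insig2 and Stard4) and for 5 that were higher (Srebf1, Scap, Abca1, Abcg1 and Lpin1), against 7.77% and 6.66% of all genes.

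Among the SREBP regulators, Insig2, a sterol-dependent anchor of SCAP, had the smallest p. It had 53.7, 59.3 and 54.0 CPM in tau control mice and 43.6, 44.4 and 49.1 in tau acetate mice, and 47.3, 51.4 and 52.3 against 46.8, 47.1 and 48.9 in the PBS arm. The diet groups were apart after tau and overlapped after PBS. The log2 fold change was -0.29 (SE 0.07, adjusted p = 0.168, edgeR) after tau and -0.08 (SE 0.07, adjusted p = 0.540) after PBS. Srebf1, whose SREBP1 products mainly drive fatty acid synthesis, was higher by 0.31 (SE 0.08, adjusted p = 0.182) after tau, with 60.4, 56.0 and 56.2 CPM on control diet and 75.6, 67.6 and 70.1 on acetate, and by 0.07 (SE 0.08, adjusted p = 0.661) after PBS. Srebf2, the main regulator of cholesterol synthesis, had 218 to 272 CPM over the 12 mice. Its log2 fold change with acetate was -0.15 (SE 0.06, adjusted p = 0.138, edgeR) after PBS and 0.04 (SE 0.06, adjusted p = 0.86) after tau. Without PBS acetate mouse 3 it was called after PBS. Insig1, an SREBP target that feeds back on the pathway, had 54.2 to 75.2 CPM over the 12 mice. With all 12 mice and the filter on low counts, edgeR called none of the 5 genes of this role in the 4 pairwise comparisons. Over all genes it called 4.85% lower and 3.99% higher between the diets after PBS, and 0.0611% after tau. For tau against PBS it called 0.0136% on control diet and 0.136% on acetate.

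Lpin1, a phosphatidate phosphatase with SREBP-responsive transcription, had 29.2, 28.1 and 35.0 CPM in tau control mice and 40.1, 37.1 and 36.8 in tau acetate mice, without overlap. In the PBS arm the values were 35.6, 34.9 and 34.5 against 33.8, 34.9 and 37.3 CPM. Its log2 fold change was 0.31 (SE 0.08, adjusted p = 0.204, edgeR) after tau and 0.01 (SE 0.08, adjusted p = 0.959) after PBS.

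In the mevalonate arm edgeR called 0 of 8 genes in every comparison, with 2 lower and 1 higher at an unadjusted p below 0.05 between the diets after PBS, where DESeq2 called Hmgcs1. Its smallest p was that of Acat2, the cytosolic thiolase that joins acetyl-CoA units, with 28.6, 22.1 and 24.8 CPM in PBS control and 22.6, 20.0 and 21.9 in PBS acetate mice, a log2 fold change of -0.24 (SE 0.10, adjusted p = 0.186, edgeR). The groups overlapped, and after tau Acat2 lay at 22.9, 26.1 and 20.8 CPM on control diet and 22.2, 22.4 and 23.4 on acetate. Hmgcs1 had 337, 255 and 282 CPM in PBS control mice and 249, 229.6 and 261 in PBS acetate mice, a log2 fold change of -0.24 (SE 0.10, adjusted p = 0.193), and -0.15 (SE 0.10, adjusted p = 0.631) after tau. In the other direction, the mevalonate kinase gene Mvk was 0.21 higher on the log2 scale after PBS (SE 0.10, adjusted p = 0.223) without overlap of the groups, and -0.01 (SE 0.10, adjusted p = 0.989) after tau. The 8 genes of this arm ranged from -0.24 to 0.21 in the PBS arm and from -0.15 to 0.03 in the tau arm.

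The other 9 sterol-arm enzymes had log2 fold changes with acetate between -0.19 (Hsd17b7) and 0.17 (Tm7sf2) after PBS and between -0.22 (Msmo1) and 0.27 (Ebp) after tau. Cyp51, lanosterol demethylase, had 58.1, 64.8 and 60.1 CPM in tau control and 54.1, 53.7 and 54.1 in tau acetate mice (-0.18, SE 0.07, adjusted p = 0.381, edgeR), without overlap. After PBS its difference was 0.05 (SE 0.07, adjusted p = 0.722).

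The diet comparisons after PBS and after tau share no mice and could be set side by side. Of the 19 enzymes, 10 (52.6%) were lower with acetate after both injections and 2 (10.5%) were higher after both, whereas 27.1% of all tested genes were lower and 28.3% higher after both. Over all 33 members the counts were 13 lower and 10 higher. The list was chosen with earlier results of these data known, and genes measured in the same mice are not independent. PBS control mouse 1 was the highest of the 12 in 8 of the 19 enzymes, and tau acetate mouse 2 the lowest in 7. These counts therefore describe the list and do not test it. Oligodendrocyte markers went opposite ways between the injections in 12 of 12 cases, lower with acetate after PBS (median log2 fold change -0.55) and higher after tau (0.52). Stard4 and Sqle were lower in both arms. CA3 markers were lower in both arms in 4 of 6 cases and neuron markers in 2 of 5, Snap25 and Slc17a7. The part of these markers in the Stard4 and Sqle differences was not tested.

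**Figure D3:**
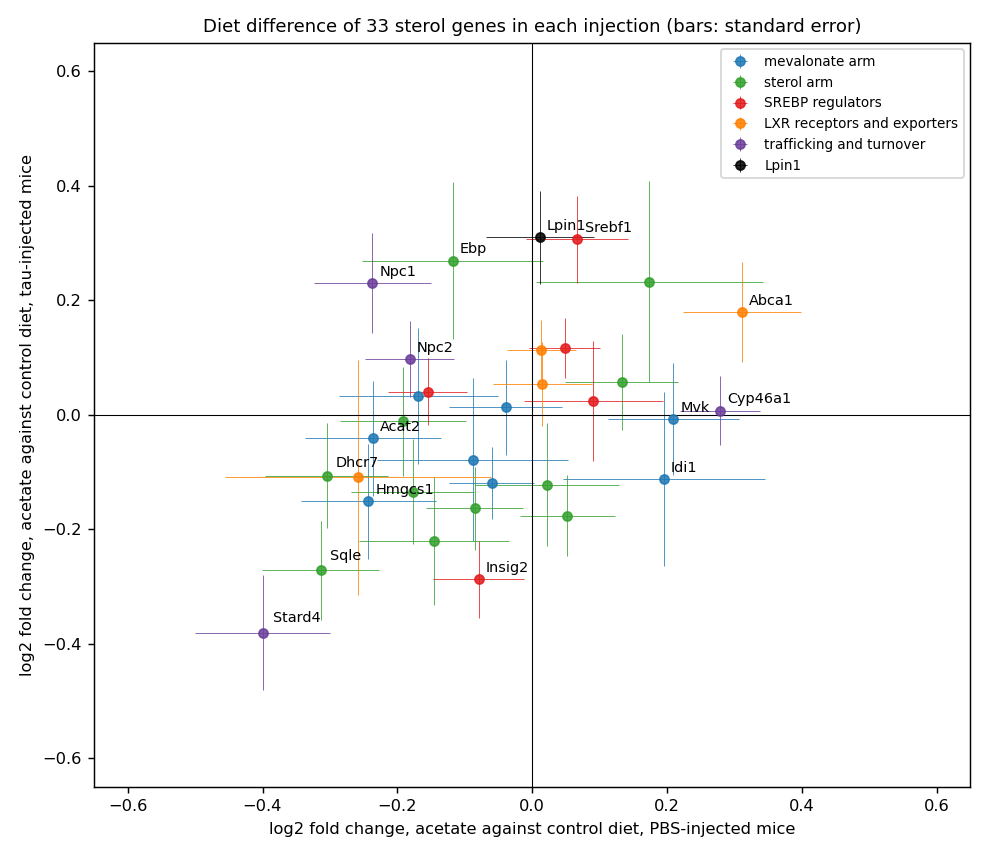
Log2 fold change of each of the 33 genes with acetate after PBS (horizontal) and after tau (vertical), with standard errors and colours by role. Stard4 and Sqle lie at the lower left (-0.40 and -0.38, -0.31 and -0.27), and 10 of the 19 enzymes lie below 0 on both axes.

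A comparison of all 6 acetate mice with all 6 control mice, averaged over the injections, was added after the data were seen. It called 4 members lower, against 3.81% of all genes, and 3 higher, against 1.95%. Stard4 was lower by a log2 value of -0.39 (SE 0.07, adjusted p = 0.00939, edgeR), Sqle by -0.29 (SE 0.06, adjusted p = 0.0203), Insig2 by -0.18 (SE 0.05, adjusted p = 0.0475) and Dhcr7 by -0.21 (SE 0.06, adjusted p = 0.0907). Abca1 rose by 0.25 (SE 0.06, adjusted p = 0.0415), Srebf1 by 0.19 (SE 0.05, adjusted p = 0.0669) and Cyp46a1 by 0.14 (SE 0.04, adjusted p = 0.0736). Averaged in this way the oligodendrocyte markers had a median of -0.01 with 0 of 12 called by edgeR (0 at an unadjusted p below 0.05), while 5 of 5 CA1 markers were higher (median 0.44, 1 called). Of the 6 CA3 markers 1 was called lower and 1 higher (median -0.29), and 2 of 5 neuron markers were called lower, Snap25 (-0.34) and Slc17a7 (-0.17), with the other 3 between 0.04 and 0.06. The part of these markers in the members' differences was not tested. Stard4 and Sqle passed in all 12 fits that left out 1 mouse, and they were the only members that passed without PBS control mouse 3, PBS acetate mouse 1 or PBS acetate mouse 2. Without tau acetate mouse 3 these 2 and Insig2 passed. Over all genes this comparison called 849 with all 12 mice. It called 343 without PBS control mouse 3, 400 without PBS acetate mouse 1, 221 without PBS acetate mouse 2 and 302 without tau acetate mouse 3.

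Tau against PBS called 0 members by edgeR on either diet, against 0.0136% of all genes on control diet and 0.136% on acetate. DESeq2 on all 12 mice also called 0 members. Over all genes it called 86 on control diet and 112 on acetate. On the 6 compared mice DESeq2 called 0 members, and 170 and 133 genes in the same order. With so few genes called by either test, counts of 0 members say nothing particular about the list. At an unadjusted p below 0.05, 4 members were lower and 2 higher on control diet, against 4.84% and 4.81% of all genes. On acetate 1 was lower and 2 were higher, against 4.83% and 5.5%. On control diet Cyp46a1 was 0.20 higher after tau on the log2 scale (SE 0.06, adjusted p = 0.324), without overlap. The largest differences were those of Ebp on control diet (-0.35, SE 0.14, adjusted p = 0.421) and Idi1 on acetate (-0.26, SE 0.15, adjusted p = 0.571). After tau on control diet, 12 of 12 oligodendrocyte markers were lower (median log2 fold change -0.62) and 5 of 5 CA1 markers higher (0.53). On acetate, 12 of 12 oligodendrocyte markers were higher (0.46) and 4 of 5 CA1 markers lower (-0.11). None of these markers was called by edgeR. The part of the markers in the Cyp46a1, Ebp and Idi1 differences was not tested.

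**Figure D4:**
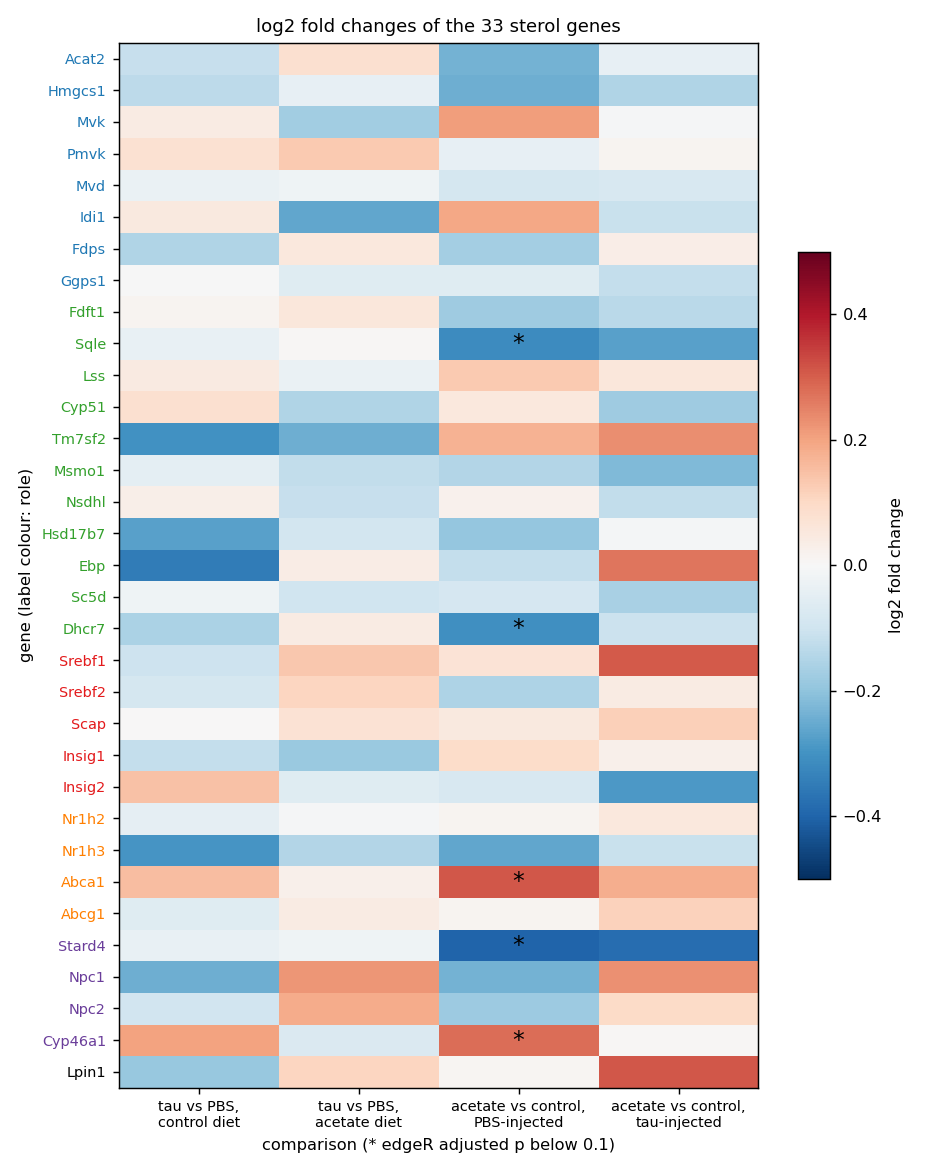
Log2 fold changes of the 33 genes in the 4 pairwise comparisons, in a colour scale from -0.5 to 0.5, with an asterisk where edgeR's adjusted p was below 0.1. The 5 asterisks stand in the column that compares the diets after PBS.

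For the difference between the diet responses of tau-injected and PBS-injected mice, 0 of 33 members were called by edgeR, against 1.56% of all genes. At an unadjusted p below 0.05 the difference was lower for 3 members and higher for 5, against 6.23% and 6.76% of all genes. DESeq2 called 1 member, Npc1, and 434 genes in all, where edgeR called 230. Npc1, the membrane protein that hands cholesterol out of lysosomes, is described further because it came nearest to the threshold, a choice made after its values were seen. It had 106, 102 and 90.5 CPM in PBS control mice, 91.1, 85.0 and 77.0 in PBS acetate, 79.1, 80.1 and 92.7 in tau control, and 106, 102 and 87.0 in tau acetate. Acetate mice were thus mostly lower after PBS and mostly higher after tau, with overlap in both arms. The difference of the responses was 0.47 (SE 0.12, adjusted p = 0.102, edgeR).

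Npc2, the soluble partner of NPC1 in the lysosome, had 58.3, 52.7 and 54.1 CPM in PBS control mice and 50.6, 46.7 and 48.6 in PBS acetate mice, without overlap. In tau-injected mice it had 51.9, 51.6 and 51.3 CPM on control diet and 59.3, 54.8 and 51.3 on acetate. The difference of the responses was 0.28 (SE 0.09, adjusted p = 0.187, edgeR). On average Npc1, Npc2 and the oligodendrocyte markers were all lower with acetate after PBS and all higher after tau. The part of the markers in the Npc1 and Npc2 values was not tested.

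**Figure D5:**
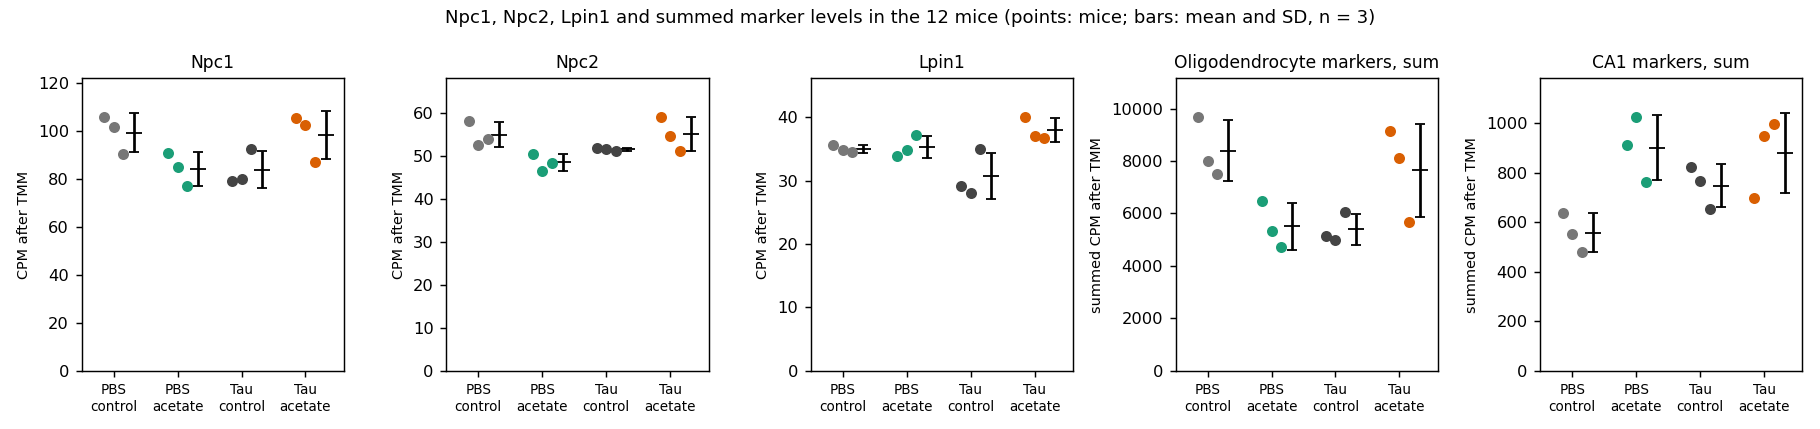
CPM of Npc1, Npc2 and Lpin1 and summed CPM of oligodendrocyte and CA1 markers in the 12 mice (points) with the mean and SD of each group of 3 (bars), on axes that start at 0. Npc1 and Npc2 are higher in PBS control and tau acetate mice than in PBS acetate and tau control mice on average, as is the oligodendrocyte sum, with overlaps between groups.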

How the data were processed

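Reads were aligned by the authors with STAR 2.5.2a to GRCm38 and counted per gene with HTSeq 0.9.1, with SAMtools 1.1 and DESeq2 also named in the submitters' processing notes; the annotation version was not given in the sources used here. The authors deposited raw counts for 24985 genes in 12 columns, with 5357 genes at 0 throughout. Groups were taken from the sample titles.

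Genes were filtered with filterByExpr (minimum count 10, minimum total 15), which left 14742. All 12 mice entered 1 fit with a mean per group and TMM scaling, tested in edgeR 4.0.16 by the quasi-likelihood F test with robust shrinkage (R 4.3.3, limma 3.58.1) on 8 residual degrees of freedom. Benjamini-Hochberg adjustment ran over the 14742 genes, with 0.1 as the threshold for a call. The common biological coefficient of variation was 7.25%, which limits precision more than counting error for most members, but less for the lowest, Nr1h3 and Idi1. The scripts were tested on simulated data. DESeq2 1.42.0 was an alternative.

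The members, roles and marker lists were chosen with earlier results of these data known. Full values are given for members past the threshold and, in each role without one, for the member with the smallest p; the other genes of the pathway are named where called. Hmgcs1, Mvk, Cyp51, Srebf1, Srebf2, Npc1, Npc2, Ebp and Idi1 were added to these after their values were seen. Exon lengths came from GENCODE on GRCm38. No column of samples was left unused. Some genes of the wider pathway are not reported here.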

Additional observations from a re-analysis of the deposited data

Results flagged for a closer look

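Stard3, a late endosomal sterol-binding protein listed among the other genes of the pathway, responded to acetate differently after the 2 injections by the test of that difference. It had 28.6, 27.1 and 29.7 CPM in PBS control mice, 24.1, 24.2 and 25.2 in PBS acetate, 25.0, 23.6 and 26.3 in tau control and 30.1, 33.2 and 28.5 in tau acetate. The difference of the log2 responses was 0.52 (SE 0.11, adjusted p = 0.0533, edgeR), and its direction followed that of the oligodendrocyte markers, whose part was not tested. Of the 34 tested genes of that list, this test called 0 lower and 1 higher, against 1.56% of all genes. Nothing particular to the pathway is read from a count of that size. Over all genes the 230 calls of this test fell to 8 without PBS acetate mouse 2 and to 22 without tau acetate mouse 1.

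Npc2 was lower in all 3 tau mice than in all 3 PBS mice on control diet and higher in all 3 on acetate. The difference of the responses was 0.28 on the log2 scale, and with an adjusted p of 0.187 (edgeR, 3 mice per group) it did not pass the threshold.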

How the results depend on the processing

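Between the diets after PBS, 5 members were called and 2 (Stard4 and Cyp46a1) at an adjusted p below 0.05, with 5 to 7 under the other settings and 0 to 6 when 1 mouse was left out. For the diets after tau the count rose from 0 to 1 without the filter on low counts (Srebf1), 1 with DESeq2 on the 6 compared mice (Srebf1) and 4 with DESeq2 on all 12. It was 0 to 1 with 1 mouse left out, Insig2 being called without tau acetate mouse 3. Over all genes these 4 fits called 56, 137, 175 and 66 in this order, against 9 in the main fit. For the difference between the responses the count of members rose from 0 to 1 (Npc1) with DESeq2's size factors, without the filter, with DESeq2 on all 12 mice, without robust shrinkage and with the replicate block. Over all genes these settings called 240, 266, 434, 325 and 349 in this order, against 230 in the main fit. With 1 mouse left out 0 to 2 members were called. There, Npc1 was called without PBS control mouse 3 or tau acetate mouse 3, Npc1 and Lpin1 without tau control mouse 3, and Cyp46a1 without PBS control mouse 2. For the diets averaged over the injections, 7 members fell to 4 at an adjusted p below 0.05 and ranged from 2 to 9 with 1 mouse left out. Tau against PBS gave 0 throughout, on both diets. Its largest counts over all genes, from DESeq2 on the 6 compared mice, were 170 on control diet and 133 on acetate. Beside so few calls, 0 members says nothing particular about the list. Of the 38 differences of named members recomputed, 5 that lay near 0 and were not called changed sign when 1 mouse was left out: Lpin1 (-0.029 to 0.045) and Cyp51 (-0.017 to 0.14) between the diets after PBS, Cyp46a1 (-0.022 to 0.036) and Mvk (-0.093 to 0.046, and 0.00058 without the filter) after tau, and the difference of the responses of Stard4 (-0.077 to 0.11). Over these differences and settings, 52 lost a call and 19 gained one. The causes were not tested.

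The labels did not say whether replicate numbers marked shared litters or batches. Mice with the same number did not deviate together (correlation -0.105 to 0.144 over 18 pairs, median -0.016, against a median of -0.027 for different numbers). With the replicate number as a block the members called were 5 after PBS, 0 after tau, 7 averaged, 1 for the difference of the responses and 0 for tau on either diet. Over all genes the block moved the calls for that difference from 230 to 349, those of tau on control diet from 2 to 9, and the calls of the diet after PBS from 1303 to 1224. The spread between mice sets the limit for most members, and counting error for the lowest, Nr1h3 and Idi1.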

Other observations

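Genes of the pathway outside the 33 members were counted from a list of 36, of which 34 were tested. In PBS-injected mice edgeR called 3 of the 34 lower and 3 higher with acetate, against 4.85% and 3.99% of all genes. The lower genes were Lipa, the lysosomal acid lipase (log2 fold change -0.42, SE 0.10, adjusted p = 0.0268), Cyp7b1, an oxysterol hydroxylase (-0.36, SE 0.10, adjusted p = 0.0562), and Nus1, a subunit of the dolichol-forming transferase (-0.21, SE 0.05, adjusted p = 0.0402). The higher genes were Mylip, a ubiquitin ligase gene and LXR target (0.40, SE 0.11, adjusted p = 0.0454), the lipoprotein receptor gene Lrp1 (0.24, SE 0.06, adjusted p = 0.0487) and Apoe (0.19, SE 0.06, adjusted p = 0.0961).

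In tau-injected mice edgeR called 0 of the 34 between the diets, with 1 lower and 5 higher at an unadjusted p below 0.05, against 5.41% and 5.47% of all genes. Averaged over the injections, a comparison added after the data were seen, edgeR called 2 of the 34 lower and 3 higher. Over all genes it called 3.81% lower and 1.95% higher. Lipa (-0.29, adjusted p = 0.0314, edgeR) and Nus1 (-0.19, adjusted p = 0.0169) were lower. Mylip (0.27, adjusted p = 0.061, edgeR), Apoe (0.16, adjusted p = 0.0543) and Clu (0.11, adjusted p = 0.0714) were higher. Of the 34 genes, 7 (20.6%) were lower and 11 (32.4%) higher with acetate after both injections, against 27.1% and 28.3% of all genes.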
